A study of Mus musculus with 43 samples.

Results

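The PYHIN family is a cluster of interferon-inducible genes for proteins that bind DNA, and the 6 members described here are Ifi204, Ifi205, Ifi213, Mnda, Pyhin1 and Aim2. They were chosen by name, with earlier results of these data known. Of the 19752 genes with a probe set of their own on the array (a probe set is the group of probes that reads out 1 transcript), 4 are members: Ifi205, Ifi213, Aim2, and Pyhin1, which the platform lists under the RefSeq symbol Ifi209. Ifi204 and Mnda, which RefSeq lists as Ifi211, share 1 probe set (10360382), so its values belong to both and cannot be assigned to either gene.

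A PYHIN protein typically joins a pyrin domain, through which it binds other pyrin proteins, to a HIN domain that grips the backbone of double-stranded DNA. Aim2 is the sensor that assembles the inflammasome on cytosolic DNA: it recruits the adaptor Pycard (ASC), which activates caspase-1, leading to release of interleukin-1 family cytokines and pyroptotic death. Ifi204 has been linked to STING-dependent interferon production, and p205, the product of Ifi205, to gene regulation in the nucleus, while Mnda is named for its human relative in myeloid cells. Type I interferon acts in part through transcription factors that bind the interferon-stimulated response element (ISRE) in promoters.

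Cells were sorted from male C57BL/6 mice that were 6 weeks old and were profiled on Mouse Gene 1.0 ST arrays of Affymetrix. The untreated mice carried no labelled injection, not even of vehicle, and the treated mice were taken 2 h after 10000 U of interferon alpha given under the skin, so injection and interferon cannot be told apart. The 9 cell types were CD4+, CD8+, regulatory and gamma-delta T cells with NK and NKT cells, called lymphocytes here, and dendritic cells, macrophages and neutrophils, called myeloid cells. Spleen was the labelled tissue except for macrophages, which came from the peritoneal cavity. Each type had 3 untreated arrays (neutrophils 2) and 2 interferon arrays (macrophages 1), or 26 untreated and 17 interferon arrays in all. The labels do not say whether arrays came from separate animals, and the p-values thus reflect the spread among these arrays alone, which may be technical. All levels are log2 intensities, and levels are compared only within 1 probe set. In sorted bulk RNA, fewer cells of a type and less RNA per cell cannot be told apart.

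Array medians lay between 105 and 125 on the linear scale, and 41 of the 43 arrays correlated best, over all genes, with another array of their own cell type. The exceptions were 2 gamma-delta T cell arrays, untreated array 2 and interferon array 1. Untreated gamma-delta array 1 carried high NK cell markers (a median of 9.51 over 7 genes, against 7.02 and 7.17 in the interferon arrays), and gamma-delta arrays as a whole had B cell markers at medians of 7.70 to 9.56. Only 1 of the listed gamma-delta markers could be matched, and it was highest in those arrays (7.83 to 8.47). The other types carried their own defining markers, for example 10.72 to 11.44 for 9 macrophage markers in macrophage arrays and 12.78 to 13.16 for 8 neutrophil markers in neutrophil arrays. The tissue is in doubt for untreated CD8+ T cell arrays 1 and 2, titled spleen but with blood as their source, and for untreated macrophage arrays 1 and 2, whose preparation label speaks of spleen. The wording of the preparation label is shared by untreated arrays 1 and 2 and by no interferon array, so in part preparation and treatment cannot be told apart. Neutrophils had only these untreated arrays, so for them preparation and treatment cannot be told apart at all. The treated NK, NKT and CD4+ T cell arrays carried a wording found in no untreated array.

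The 13 mouse family genes in RefSeq lie next to each other on chromosome 1, from Aim2 to Ifi205, with 0 other protein-coding genes between them. Upstream sequences of 7 of them are shown because family genes differ in whether they hold the ISRE core. The motif GAAANNGAAA was searched on both strands in the 250 bases before each annotated start (RefSeq, GRCm38.p6). It was present in 9 of the 12 family genes with a window and in 936 of 27025 genes overall (3.46%), or 2.98% of 32851 windows, since some genes have more than 1. No window was given for Ifi204. Each line holds 80 bases, 5′ to 3′ on the strand of the gene, and capitals mark the match: Ifi205 at chr1:174031855-174031934, Ifi211 (Mnda) at chr1:173913049-173913128, Ifi207 at chr1:173741816-173741895, Ifi213 at chr1:173599311-173599390 and Ifi214 at chr1:173536002-173536081, all on the minus strand, and Ifi209 (Pyhin1) at chr1:173630735-173630814 and Aim2 at chr1:173420524-173420603 on the plus strand.
Ifi205: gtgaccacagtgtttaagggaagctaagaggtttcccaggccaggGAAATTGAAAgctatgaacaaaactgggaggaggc
Ifi211 (Mnda): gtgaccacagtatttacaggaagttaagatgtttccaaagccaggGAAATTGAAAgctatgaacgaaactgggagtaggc
Ifi207: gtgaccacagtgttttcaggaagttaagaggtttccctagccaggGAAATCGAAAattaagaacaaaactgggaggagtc
Ifi213: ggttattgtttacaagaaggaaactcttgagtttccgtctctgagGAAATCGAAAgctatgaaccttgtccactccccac
Ifi214: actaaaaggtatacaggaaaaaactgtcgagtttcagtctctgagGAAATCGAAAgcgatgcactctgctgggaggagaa
Ifi209 (Pyhin1): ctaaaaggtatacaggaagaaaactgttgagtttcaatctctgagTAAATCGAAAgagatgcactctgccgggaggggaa
Aim2: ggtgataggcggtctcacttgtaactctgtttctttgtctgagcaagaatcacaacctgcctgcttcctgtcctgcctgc

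The match read GAAATCGAAA in 7 family genes and GAAATTGAAA in Ifi205 and Ifi211. It began at -134 from the start in Ifi205, at -73 in Ifi213 and at -37 in Ifi211. Aim2, Ifi202b and Ifi209 had no match in the window. In Ifi209 the capitals mark the place that aligns with the match of Ifi214, over an alignment in which 237 of 251 columns (94.4%) were identical. That place reads TAAATCGAAA, with the substitution G1T, counted from 1 at the 5′ end of the Ifi214 match. For Aim2 the 80 bases directly before the start are shown. A match is a description of the letters only.

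Interferon raised 3 of the 4 separately measured members on average over the 9 cell types, against 1.26% of all genes. A gene was called raised when it changed 2-fold or more (a log2 change of 1) with an adjusted p below 0.05. Ifi213 rose 8.30-fold (log2 change 3.05, SE 0.0946), Ifi205 8.24-fold (3.04, SE 0.144) and Pyhin1 5.40-fold (2.43, SE 0.124). Aim2 changed by 0.23 on average (SE 0.113, 95% interval -0.0011 to 0.46, adjusted p = 0.141) and was not called. The probe set of Ifi204 and Mnda rose 10.8-fold (3.43, SE 0.132) in a fit over all 24922 probe sets, in which 1.35% of probe sets were raised.

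**Figure D1:**
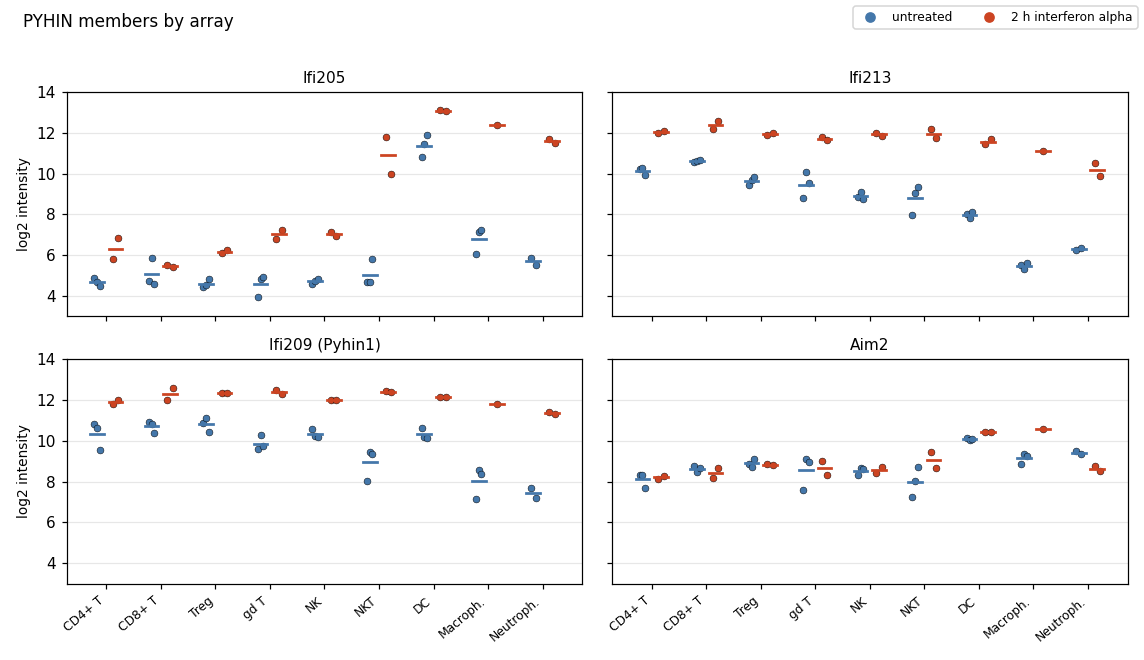
Level of each separately measured PYHIN member (log2 intensity, vertical axis) in every array of the 9 cell types (horizontal axis); blue points are untreated, red points 2 h after interferon alpha, and bars are group means. Interferon arrays of Ifi213 and Pyhin1 lie above all untreated arrays in 9 of 9 types, those of Ifi205 in 8 and those of Aim2 in 2.

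By cell type, the number of the 4 members raised was 3 in CD4+ T cells (background 0.901% of genes) and 2 in CD8+ T cells (background 1%). It was 3 in regulatory T cells (background 1.11%), as in gamma-delta T cells (1.53%) and NK cells (1.25%). All 4 were raised in NKT cells (background 2.89%), and 3 each in dendritic cells (2.34%), macrophages (1.35%) and neutrophils (2.43%). No member was lowered in any of the 9 cell types, where 0.659% of gene values were. All treated arrays of a type lay above all its untreated arrays for Ifi213, Pyhin1 and the probe set of Ifi204 and Mnda in 9 of 9 types, for Ifi205 in 8 and for Aim2 in 2; by type, 10.7% to 29.6% of all genes were so separated. Ifi213 and Pyhin1 belonged to the 90 genes (0.456%) that were raised in all 9. Without interferon array 2 of CD4+ T cells, and likewise without untreated array 3, the CD4+ count fell to 1, since the calls of Ifi205 and Pyhin1 were both lost. The CD8+ count fell to 1 without interferon array 2 or untreated array 3, and the regulatory T cell count to 1 without either interferon array or untreated array 3.

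Aim2, the inflammasome sensor, was highest in dendritic cells before interferon, and changed little in most types after it. The untreated dendritic cell arrays stood at 10.13, 10.05 and 10.11, the neutrophil arrays at 9.49 and 9.33 and the macrophage arrays at 8.87, 9.34 and 9.26. Regulatory T cells followed at 8.86, 8.72 and 9.11. Lymphocyte arrays reached at most 9.11, and all 3 dendritic cell arrays lay above every other untreated array. The dendritic cell level exceeded the mean of the other 8 types by 1.43 (SE 0.218, adjusted p = 2.52e-06), a comparison in which 4.84% of genes were higher. Neighbours in the order of untreated levels did not pass the test at any of the 8 steps; the first, dendritic cells over neutrophils, was 0.69 (95% interval 0.03 to 1.35, adjusted p = 0.113).

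After interferon, Aim2 in 5 of the 6 lymphocyte types moved by less than 0.25 in either direction. The CD4+ T cell arrays went from 8.33, 8.34 and 7.67 to 8.13 and 8.29, and the CD8+ T cell arrays from 8.78, 8.48 and 8.66 to 8.16 and 8.68. Regulatory T cells went from 8.86, 8.72 and 9.11 to 8.87 and 8.80. In each of these types the treated and untreated arrays overlapped. Gamma-delta T cells had 7.60, 9.09 and 8.96 untreated and 9.02 and 8.34 treated, and NK cells 8.32, 8.67 and 8.63 and 8.44 and 8.74. The intervals still allow modest changes, from -0.88 to 0.44 in CD8+ T cells and from -0.53 to 0.79 in gamma-delta T cells.

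NKT cells gave the single Aim2 call: 7.27, 8.02 and 8.70 untreated against 9.46 and 8.65 treated, a change of 1.06 (SE 0.324, adjusted p = 0.0371). The untreated arrays themselves spread over more than the change, and array 3 overlapped the lower treated array. The higher treated array was also the one with the higher median of macrophage markers (9.65 against 8.25), and the part of such cells was not tested. The call was lost with a term for the preparation wording (0.92, adjusted p = 0.10), against untreated array 3 alone (0.35), and when untreated array 1, untreated array 2 or interferon array 1 was left out (0.69, 1.07 and 0.65). In macrophages the 1 treated array stood at 10.59 against 8.87, 9.34 and 9.26, above all 3; the change of 1.43 had an adjusted p of 0.0619 and was called in 5 of 11 alternative settings. Dendritic cells moved from 10.13, 10.05 and 10.11 to 10.45 and 10.45, both treated arrays above all untreated ones, with a change of 0.35 (adjusted p = 0.792). Neutrophils went the other way, from 9.49 and 9.33 to 8.76 and 8.53, with no overlap and a change of -0.77 (adjusted p = 0.182). All treated above all untreated arrays occurred in 17% of genes in dendritic cells and 16.1% in macrophages, and all below in 24.7% in neutrophils. The F test for any difference of the Aim2 change among the 9 types had an adjusted p of 0.117.

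The probe set shared by Ifi204 and Mnda was highest in myeloid cells before treatment and rose in 9 of 9 cell types. Untreated macrophages stood at 8.71, 10.04 and 10.38, neutrophils at 8.58 and 9.09 and dendritic cells at 7.92, 7.38 and 7.86, while the 18 untreated lymphocyte arrays ran from 5.32 to 6.97. Every myeloid array lay above every lymphocyte array. Interferon brought the macrophage array to 12.33, neutrophils to 12.36 and 12.13 and dendritic cells to 12.21 and 12.08. These 5 treated myeloid arrays lay within 0.28 of each other, from 12.08 to 12.36.

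Among lymphocytes the treated levels were highest in NKT and NK cells, with gamma-delta T cells between them and the remaining T cells. NKT cells went from 6.02, 6.00 and 6.88 to 11.83 and 11.13, a rise of 36.3-fold (log2 5.18, SE 0.378), and NK cells from 6.66, 6.36 and 6.97 to 10.86 and 11.49, or 22.8-fold (4.51, SE 0.378). The treated NKT array at 11.83 was also the one with the higher median of macrophage markers (9.65 against 8.25). The part of such cells in the NKT rise was not tested. Gamma-delta T cells went from 6.44, 5.32 and 5.83 to 9.19 and 9.35. The remaining T cell types stayed lower: CD4+ T cells reached 7.91 and 8.54 from 5.35, 5.69 and 5.75, CD8+ T cells 7.63 and 8.15 from 5.43, 6.02 and 5.43, and regulatory T cells 8.28 and 8.25 from 5.49, 5.49 and 6.49. Even the smallest change, in CD8+ T cells, was 4.81-fold (log2 2.27, SE 0.378, limma adjusted p = 0.000256). In no type did treated and untreated arrays overlap. Untreated lymphocyte levels all lay below 7, a level taken as dim here, so their folds are approximate. Of all probe sets, 0.899% in CD4+, 0.943% in CD8+, 1.09% in regulatory and 1.61% in gamma-delta T cells were raised, with 1.23% in NK and 2.86% in NKT cells. Among myeloid cells the shares were 1.36% in macrophages, 2.38% in dendritic cells and 2.48% in neutrophils.

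Ifi205, the gene of the nuclear protein p205, was highest in dendritic cells before treatment and became high in all 3 myeloid types and in NKT cells afterwards. Untreated dendritic cell arrays stood at 10.79, 11.44 and 11.89. Macrophages stood at 6.06, 7.14 and 7.24 and neutrophils at 5.85 and 5.54. The dendritic cell level exceeded the mean of the other 8 types 74.8-fold (log2 6.22, SE 0.279), and the step down to macrophages was 4.56 (SE 0.371, adjusted p = 3.10e-12). Macrophages in turn exceeded neutrophils by 1.12 (adjusted p = 0.0361). Neutrophils and the 6 lymphocyte types formed an order in which no step between neighbours passed the test. The untreated lymphocyte arrays ran from 3.96 to 5.84.

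The rises of Ifi205 were very unequal. Outside dendritic cells most untreated levels lay below 7, the level taken as dim here, and no detection calls were used, so these folds are approximate and their order is not to be read. Neutrophils went from 5.85 and 5.54 to 11.72 and 11.49, a 60.1-fold rise (log2 5.91, SE 0.454). Macrophages went from 6.06, 7.14 and 7.24 to 12.36 in the 1 treated array, or 46.8-fold (5.55, SE 0.524). NKT cells went from 4.67, 4.68 and 5.79 to 11.80 and 9.98, or 57.3-fold (5.84, SE 0.414). In all 3 types the lowest treated array lay more than 4 log2 units above the highest untreated one. Dendritic cells, already high, moved from 10.79, 11.44 and 11.89 to 13.10 and 13.08, or 3.29-fold (1.72, SE 0.414, adjusted p = 0.00596); against untreated array 3 alone this change was 1.20 (adjusted p = 0.398).

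The 2 treated NKT arrays differed from each other by more in Ifi205 than those of any other type. The median of 9 macrophage markers in NKT arrays was 7.97, 6.99 and 8.11 untreated and 9.65 and 8.25 treated, with 2 of 9 markers raised, while untreated macrophages had 10.72, 11.04 and 10.89. The treated NKT array with the higher marker median was also the one with the higher Ifi205. The part of these cells in the Ifi205 change was not tested. With both NKT arrays 1 and untreated gamma-delta array 1 left out, the change was 4.74. These are the 3 arrays called arrays with markers of other cells below. Their removal was partial, since the untreated NKT array at 8.11 and the other gamma-delta arrays, with their B cell markers, were kept. In neutrophil arrays the macrophage marker median was 6.70 and 6.44 untreated and 8.02 and 8.67 treated, with 1 of 9 raised and 1 lowered, and their B cell marker median went from 8.58 and 7.82 to 6.58 and 6.61, with 6 of 9 lowered. Their part in the neutrophil values was not tested.

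In the other lymphocytes Ifi205 stayed low after treatment. Gamma-delta T cells went from 3.96, 4.83 and 4.94 to 6.81 and 7.25 (log2 change 2.45, SE 0.414) and NK cells from 4.60, 4.75 and 4.81 to 7.15 and 6.94 (2.32, SE 0.414). CD4+ T cells went from 4.88, 4.69 and 4.48 to 5.79 and 6.82 (1.62, adjusted p = 0.0316), and regulatory T cells from 4.44, 4.53 and 4.85 to 6.08 and 6.24 (1.56, adjusted p = 0.0462). These last calls were close to the threshold: with the preparation term the adjusted p was 0.109 in CD4+ and 0.167 in regulatory T cells, and without interferon array 2 the CD4+ change was 1.10. CD8+ T cells were the type without a call, with 4.72, 5.84 and 4.59 untreated and 5.51 and 5.42 treated, so that both treated arrays lay below 1 of the untreated ones (change 0.41, 95% interval -0.43 to 1.26, adjusted p = 0.920). That untreated array, at 5.84, was array 2, whose tissue is in doubt, as is that of array 1 (4.72). After interferon 1 step between neighbours passed the test, from NKT cells down to NK cells by 3.85 (limma adjusted p = 1.97e-07). This step separated the 3 myeloid types and NKT cells from the rest.

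Ifi213 had the opposite untreated pattern, with T cells high and macrophages low, and rose in 9 of 9 types. CD8+ T cell arrays stood at 10.56, 10.61 and 10.65, CD4+ T cells at 10.24, 10.25 and 9.93 and regulatory T cells at 9.46, 9.68 and 9.83. Gamma-delta T cells stood at 8.79, 10.07 and 9.51, NK cells at 8.87, 9.08 and 8.77 and NKT cells at 7.98, 9.07 and 9.32. The lymphocyte levels form a gradual slope in which no neighbour differed by the test. Dendritic cells (8.01, 7.83 and 8.11), neutrophils (6.25 and 6.35) and macrophages (5.51, 5.31 and 5.61) followed in clear steps, of 0.81 from NKT to dendritic cells (adjusted p = 0.0104), 1.68 to neutrophils (adjusted p = 5.94e-06) and 0.82 to macrophages (adjusted p = 0.0181).

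Interferon narrowed the differences of Ifi213 between types. The macrophage array reached 11.11, a 49.7-fold rise (log2 5.64, SE 0.344). Neutrophils reached 10.53 and 9.86, or 14.9-fold (3.89, SE 0.298), and dendritic cells 11.45 and 11.67, or 12.0-fold (3.58, SE 0.272). The 3 types with the lowest untreated levels had the 3 largest rises, but a rise contains the untreated level, so the link is in part built in. Untreated macrophages and neutrophils lay below 7, the dim level, so their folds are approximate. NKT cells reached 12.17 and 11.72 (3.16), NK cells 12.01 and 11.84 (3.02) and gamma-delta T cells 11.77 and 11.63 (2.24). CD4+ T cells reached 12.00 and 12.09 (1.90), CD8+ T cells 12.20 and 12.56 (1.77) and regulatory T cells 11.90 and 11.98 (2.28), where each bracketed value is the log2 change. No treated array overlapped an untreated one of its type, and the largest adjusted p was 4.32e-05, in CD8+ T cells. The span between the highest and lowest group mean shrank from 5.13 untreated to 2.19 treated. The last step, macrophages over neutrophils, was the only one that passed the test (0.92, limma adjusted p = 0.0470).

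Pyhin1 (Ifi209), the mouse relative of human PYHIN1, was broadly high before treatment, low in macrophages and neutrophils, and rose in 9 of 9 types. Regulatory T cells stood at 10.90, 11.14 and 10.41, CD8+ T cells at 10.95, 10.85 and 10.40 and CD4+ T cells at 10.81, 10.64 and 9.56. NK cells stood at 10.56, 10.26 and 10.17, gamma-delta T cells at 9.60, 10.27 and 9.73 and dendritic cells at 10.63, 10.18 and 10.14. Dendritic cells thus sat among the lymphocytes for this gene, unlike for Ifi213. NKT cells (8.04, 9.47 and 9.38) exceeded macrophages (7.14, 8.55 and 8.36) by 0.94 on average (limma adjusted p = 0.0229). This was the only step between neighbours that passed the test, and neutrophils were lowest at 7.70 and 7.20.

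After interferon all 17 Pyhin1 arrays lay between 11.30 and 12.59. Neutrophils reached 11.42 and 11.30, or 15.1-fold (log2 3.91, SE 0.390), the macrophage array 11.81, or 13.9-fold (3.79, SE 0.451), and NKT cells 12.45 and 12.39, or 11.0-fold (3.46, SE 0.356). Without the 3 arrays with markers of other cells the NKT change was 2.96. Gamma-delta T cells reached 12.49 and 12.30 (5.77-fold). The remaining types rose about equally: dendritic cells to 12.14 and 12.17 (3.58-fold), NK cells to 11.98 and 12.01 (3.18-fold), CD4+ T cells to 11.81 and 12.03 (2.99-fold), CD8+ T cells to 12.00 and 12.59 (2.95-fold) and regulatory T cells to 12.37 and 12.37 (2.93-fold). The calls in CD4+, CD8+ and regulatory T cells and in NK cells were lost when certain single arrays of these types were left out, with log2 changes between 1.19 and 1.69 in those fits. The span of group means shrank from 3.37 to 1.06, and no neighbours differed by the test after interferon.

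**Figure D2:**
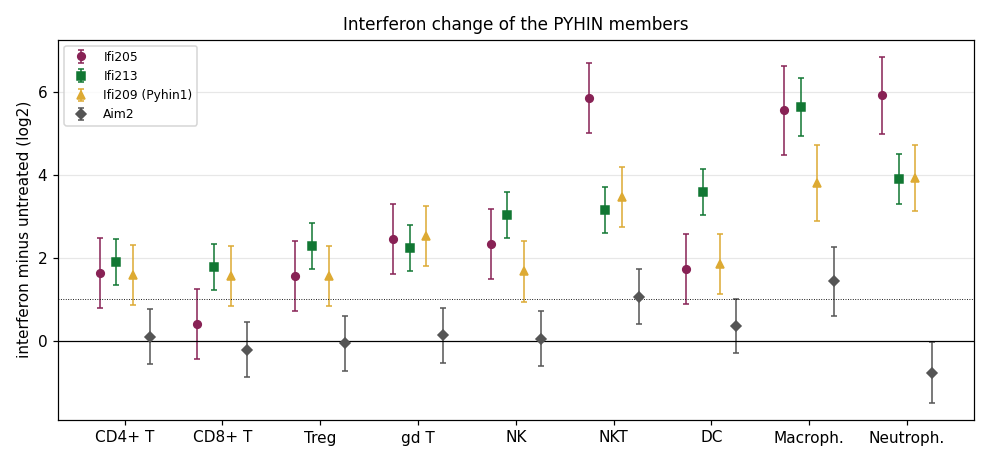
Interferon change of each member (log2, vertical axis) by cell type (horizontal axis), with 95% confidence intervals from the limma fit; the dotted line marks a 2-fold rise. Aim2 lies near 0 in most types, while Ifi205 ranges from 0.41 in CD8+ T cells to 5.91 in neutrophils.

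Whether the change itself differed among cell types was tested for each member. The F test passed for Ifi205 (adjusted p = 2.39e-08), Ifi213 (2.13e-06) and Pyhin1 (0.00163), against 4.16% of all genes. Of 36 comparisons of 1 type with the mean of the other 8, 7 were called, against 0.51% over all genes. Ifi205 rose more in neutrophils (by 3.22, SE 0.479; background 1.04%), in NKT cells (3.15, SE 0.442; 0.294%) and in macrophages (2.82, SE 0.545; 0.258%), and less in CD8+ T cells (-2.96, SE 0.442; 0.0405%). Ifi213 rose more in macrophages (2.91, SE 0.357) and less in CD8+ T cells (-1.44, SE 0.290, adjusted p = 0.0495). Pyhin1 rose more in neutrophils (1.67, SE 0.412). Aim2 had no call. Most untreated Ifi205 levels outside dendritic cells lay below 7, the dim level, so the sizes of its differences are approximate.

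Several of these calls were lost with few arrays removed. The NKT excess of Ifi205 was 2.09 (adjusted p = 0.0927) without the 3 arrays with markers of other cells, and 2.24 without NKT interferon array 1 alone. The CD8+ deficit of Ifi213 missed the threshold in 3 alternative settings and in most fits without 1 array, and was -1.10 without the macrophage interferon array. The Ifi205 deficit in CD8+ T cells kept its size without either of the 2 treated CD8+ arrays (-3.0 and -2.92) but not its call (adjusted p = 0.114 and 0.0742). The Pyhin1 excess in neutrophils was 1.41 without untreated array 2 and 1.61 without interferon array 1, with adjusted p of 0.17 and 0.103. The macrophage values rest on 1 treated array, whose spread is assumed to be like that of the other groups. In neutrophils preparation and treatment cannot be told apart.

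Before treatment, 16 of 36 comparisons of a member's level in 1 type with the mean of the other 8 were called, against 6.18% over all genes. Ifi205 and Aim2 were higher in dendritic cells, as given above, and Ifi205 also in macrophages (by 1.09; background 6.16%). Ifi205 was lower in CD4+ T cells (-1.30, background 2.35%), regulatory T cells (-1.39, 1.95%), NK cells (-1.26, 2.3%) and gamma-delta T cells (-1.42, 1.44%). For these calls the other 8 types include dendritic cells, with a mean of 11.37. The lower types all stood below 7, the dim level, and no neighbours from neutrophils down differed by the test. Ifi213 was higher in CD8+ T cells (2.27; background 1.81%), CD4+ T cells (1.74; 1.07%) and regulatory T cells (1.20; 2.07%). It was lower in macrophages (-3.50; background 3.73%) and neutrophils (-2.58; 10.1%). Pyhin1 was higher in regulatory T cells (1.31) and CD8+ T cells (1.22) and lower in macrophages (-1.83) and neutrophils (-2.47). Ifi205 and Aim2 thus had their highest level in dendritic cells, and Ifi213 and Pyhin1 in T cells.

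Set against each other, the 3 myeloid and 6 lymphocyte types split the family before treatment. Ifi205 was 9.07-fold higher in myeloid cells (log2 3.18, SE 0.195) and Aim2 2.14-fold (1.10, SE 0.153), as was the shared probe set of Ifi204 and Mnda (6.85-fold, 2.78). Ifi213 was 8.04-fold higher in lymphocytes (log2 -3.01, SE 0.128) and Pyhin1 2.99-fold (-1.58, SE 0.168). The class means hid differences within myeloid cells: for Ifi205 the means were 11.37 in dendritic cells, against 6.81 for macrophages and 5.70 for neutrophils, and for Pyhin1 dendritic cells (10.32) lay above the lymphocyte mean of 10.17. Of all genes, 5.24% were higher in myeloid cells and 3.74% in lymphocytes by this rule. Against untreated array 3 alone, a fit that leaves out neutrophils, the Pyhin1 difference was -0.69 and fell short of 2-fold.

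The mean interferon change was larger over the myeloid than over the lymphocyte types for 3 of the 4 members, against 0.547% of all genes. Macrophages and neutrophils carried this for Ifi205 and Pyhin1: in dendritic cells their changes, 1.72 and 1.84, were below the lymphocyte means. Untreated Ifi205 levels outside dendritic cells were mostly dim, so the sizes of its changes are approximate. Ifi205 rose by 4.39 in myeloid cells and 2.37 in lymphocytes (difference 2.02, SE 0.318, adjusted p = 8.28e-05). Ifi213 rose by 4.37 and 2.40 (difference 1.97, SE 0.209, adjusted p = 5.71e-08), and Pyhin1 by 3.18 and 2.06 (difference 1.12, SE 0.273, adjusted p = 0.0123). For Ifi205 the gap between the groups of cells widened, from 3.18 to a treated mean of 12.35 against 7.15. For Ifi213 it narrowed, to 10.96 in myeloid cells against 11.99 in lymphocytes. For Aim2 the difference was 0.16 (95% interval -0.34 to 0.67), and for the shared probe set 0.08. With untreated array 3 alone, and so without neutrophils, the Ifi205 and Pyhin1 differences lost their call (0.92 and 0.44) and that of Ifi213 kept it (2.16); the Pyhin1 call was also lost without the macrophage interferon array (0.82) or untreated macrophage array 1 (0.98).

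**Figure D3:**
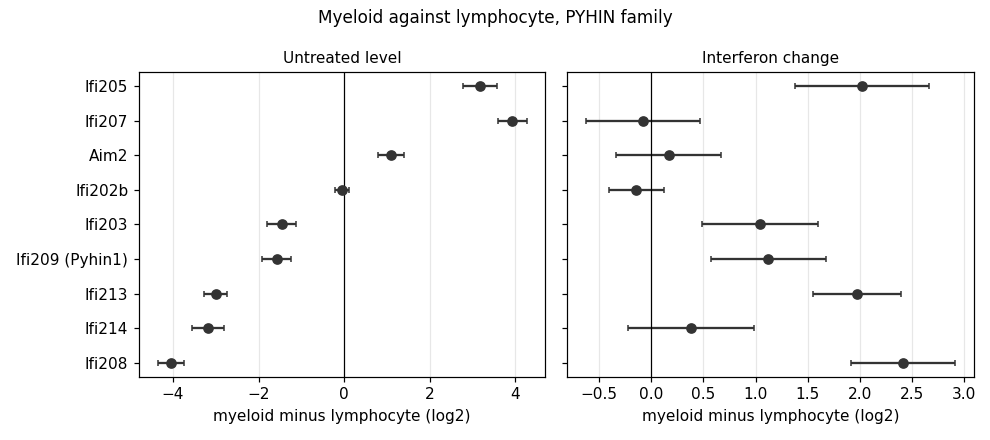
Mean of the 3 myeloid types minus mean of the 6 lymphocyte types (log2, horizontal axes) for 9 PYHIN genes, in the untreated level (left) and the interferon change (right), with 95% confidence intervals from limma. Untreated, Ifi205, Ifi207 and Aim2 lie to the right of 0, Ifi202b near 0 and the other 5 genes to the left, while on the right the lowest value is that of Ifi202b, -0.14.

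Of 11 further family names, 5 genes beside the members could be matched: Ifi202b, Ifi203, Ifi207, Ifi208 and Ifi214. On average 4 of these 5 rose, against 1.26% of all genes, of which 0.456% rose in all 9 types. Ifi208 and Ifi214 were raised in 9 of 9 types, Ifi207 in 8, Ifi203 in 7 and Ifi202b, dim in every array, in 0. Ifi207 was the gene outside the members most like Ifi205 over the 18 group means. Untreated, it stood at 11.12, 10.90 and 11.48 in dendritic cells, 10.51, 11.10 and 11.17 in macrophages and 9.37 and 9.45 in neutrophils, all above the lymphocyte arrays (5.55 to 8.54), and it was 15.3-fold higher in myeloid cells. Its largest change was in NKT cells, from 7.65, 7.27 and 8.54 to 12.37 and 11.00 (log2 3.87, SE 0.352), and its smallest in CD8+ T cells, from 6.05, 6.62 and 6.01 to 7.07 and 7.21 (0.91, adjusted p = 0.226). Without the 3 arrays with markers of other cells the NKT change was 3.10, which is below the change in NK cells (3.45) and in neutrophils (3.32).

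Ifi208 and Ifi214 were among the 3 genes outside the members most like Ifi213. Ifi208 stood at 10.39, 10.56 and 9.96 in untreated CD8+ T cells and at 5.60, 4.96 and 5.24 in dendritic cells, 5.04, 5.51 and 4.77 in macrophages and 6.16 and 6.17 in neutrophils. Dendritic cells then reached 10.25 and 10.42, a 33.6-fold rise (log2 5.07, SE 0.321), and neutrophils 10.80 and 10.46 (22.0-fold). Ifi208 was below 7, the dim level, in both and in macrophages before treatment, so these folds are approximate. Its change was larger in myeloid cells by 2.42 (SE 0.246, adjusted p = 2.87e-08), a size that is approximate for the same reason. Ifi214 stood at 10.37, 10.16 and 10.18 in CD8+ T cells and 4.52, 5.47 and 4.94 in macrophages and kept a wide span after interferon (4.45, against 5.26 untreated). Its treated arrays in neutrophils (7.76 and 7.69) stayed far below those of CD8+ T cells (11.98 and 12.37). Ifi203 ran from 8.81 to 11.62 in the untreated arrays of the other 8 types and stood at 8.43 and 7.28 in neutrophils, which rose to 11.55 and 11.38 (12.2-fold, SE 0.392 on the log2 scale). The Ifi202b arrays all lay between 3.30 and 4.31, whatever the cell type or treatment. This is far below 7, the dim level, so a gene without response cannot be told from one without signal.

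**Figure D4:**
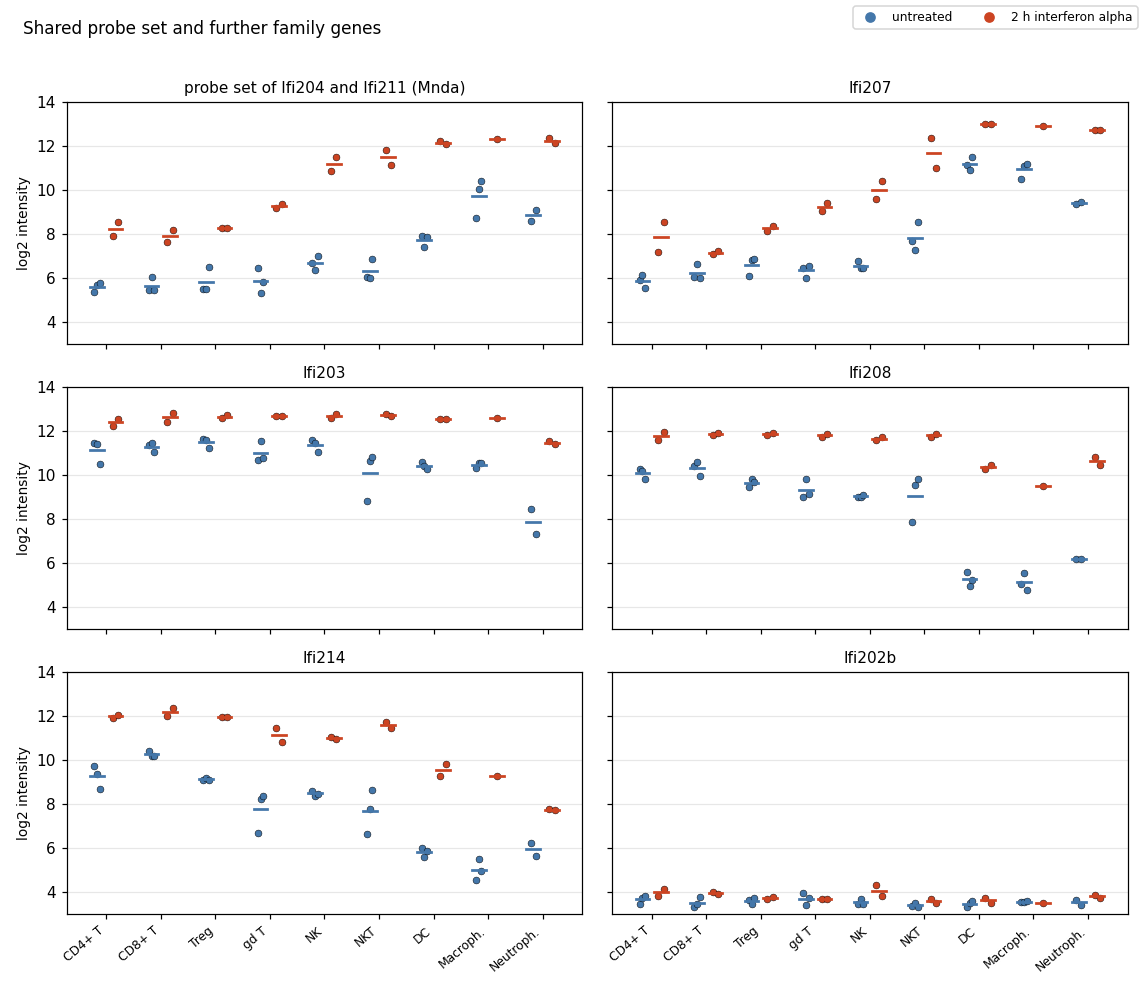
Level (log2 intensity, vertical axis) of the probe set shared by Ifi204 and Ifi211 (Mnda) and of 5 further PYHIN genes in every array of the 9 cell types (horizontal axis); blue points are untreated, red points 2 h after interferon alpha, and bars are group means. Untreated, the shared probe set and Ifi207 are highest in myeloid cells, and Ifi208 and Ifi214 in T cells, and Ifi202b stays between 3.30 and 4.31.

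Among members, Ifi213 and Pyhin1 were most alike by Pearson's r over the 18 group means (0.94), followed by Ifi205 and Aim2 (0.76). The genes outside the members with the most similar pattern were named by the same r among 9590 genes, as a description; groups of 1 cell type share their lineage, and all share the treatment. For Ifi205 they were Ifi207 (0.93), Il18 (0.92) and Acer3 (0.91), where Il18 encodes a cytokine that caspase-1 processes. For Ifi213 they were Mitd1 (0.94), Ifi208 (0.94) and Ifi214 (0.94). For Pyhin1 they were Rbl1 (0.94), Phf11c (0.94) and Ifi203 (0.94), and for Aim2 Ankle2 (0.93), Synj1 (0.90) and Bub1 (0.90). Further family genes were thus among these 3 for Ifi205, Ifi213 and Pyhin1, and none for Aim2. Whether the probe set of a family gene also reads a related family gene was not tested.

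The pathways around the family moved in part. Of 27 measured cytosolic DNA sensing genes outside the family, between 2 and 5 were raised per cell type and 0 lowered, where 0.901% to 2.89% of all genes were raised and 0.0253% to 2.85% lowered, and the median change over the list on average was -0.03, against -0.01 for all genes. Zbp1, another sensor of nucleic acids in Z form, was raised in 9 of 9 types (mean log2 change 2.54, SE 0.0605), and Irf7, a transcription factor of interferon genes, also in 9 (mean 2.55, SE 0.0833). Cgas, the enzyme that makes the messenger cGAMP on DNA, was raised in 6 types (mean 1.38, SE 0.0789), and Samhd1, which depletes nucleotides, in 5 (1.10, SE 0.0770). Trex1, the exonuclease that degrades cytosolic DNA, was raised in 2 (0.79, SE 0.0693). Sting1, the adaptor downstream of Cgas, was called in 0 types, with a mean change of 0.05 (SE 0.0925, adjusted p = 0.763).

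Among 21 measured inflammasome and pyroptosis genes, between 1 and 9 were raised per type, with 9 in NKT cells and 9 in neutrophils, where 1 was lowered, and 1 was lowered in NK cells. Those were also the types with the largest shares of all genes raised, 2.89% in NKT cells and 2.43% in neutrophils, and 2.85% of genes were lowered in neutrophils. The median change on average was 0.33. Casp4 (caspase-11) was raised in 8 types (mean 2.14, SE 0.116) and Casp1, the caspase that Aim2 activates, in 7 (1.42, SE 0.0796). Il18 was raised in 3 (1.17, SE 0.130) and Casp8 in 3 (1.04, SE 0.0895). The adaptor Pycard was raised in 0 types, with a mean change of -0.22 (SE 0.0657), and the sensor Nlrp3 in 0 (0.09, SE 0.0812). Around Aim2, the downstream caspase was raised in 7 types, the sensor in 1 and its adaptor in 0. For scale, of 10 measured core interferon response genes 8 or 9 were raised in each type, among them Stat2, a transcription factor of the interferon response (mean 2.46, SE 0.0829), and Ifit1, which binds foreign RNA (mean 4.29, SE 0.139).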

How the data were processed

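The authors' deposited values were 1 linear intensity per probe set and array, with Affymetrix Power Tools and RMA named in the submitters' processing notes; their versions and order are not given here. The intensities were used as deposited and turned into log2. Of the probe sets, 21425 carried 1 gene symbol in the platform annotation, 1399 several and 2098 none; for 921 symbols with more than 1 probe set the brightest by mean over all arrays was kept, which left 19752 genes. A single limma 3.58.1 fit (lmFit and eBayes, R 4.3.3) held all 18 groups, and p-values were adjusted by the Benjamini-Hochberg method over all genes of a comparison. The shared probe set was tested in a second fit over all 24922 probe sets. Folds are 2 to the power of the fitted log2 difference. The scripts were tested on simulated data. Promoter windows were searched with Biopython 1.88. The number of arrays limits the precision, and no detection calls were used.

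The genes named with values were all members, the further family genes, up to 6 genes of each pathway list and the 3 genes outside the members most like each member by Pearson's r over group means. The members and lists were chosen with earlier results of these data known. The shared probe set was named outside this rule. The alternatives tried were a preparation term, untreated array 3 alone, each type fitted alone, a replicate block, a filter on dim genes, quantile normalization, a variance trend, array weights, the mean of probe sets and each array left out. Leaving out 3 arrays with markers of other cells (both NKT arrays 1 and untreated gamma-delta array 1), and fitting all probe sets, were added after the data were seen. Other arrays with such markers were kept in that fit.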

Additional observations from a re-analysis of the deposited data

Results flagged for a closer look

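These interferon changes differed between cell types by limma's test of the difference itself, each adjusted over all genes (over all probe sets for the shared one). A cell type is compared with the mean of the other 8, and values are log2 differences.

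For Ifi205 the change was smaller in CD8+ T cells (difference -2.96, adjusted p = 0.00231), and larger in NKT cells by 3.15 (adjusted p = 0.000181), in macrophages by 2.82 (adjusted p = 0.00508) and in neutrophils by 3.22 (adjusted p = 3.13e-05). Its mean change over the 3 myeloid types exceeded that over the 6 lymphocyte types by 2.02 (adjusted p = 8.28e-05), although its change in dendritic cells, 1.72, was below the lymphocyte mean of 2.37. For Ifi213 the change was smaller in CD8+ T cells (difference -1.44, adjusted p = 0.0495), larger in macrophages by 2.91 (adjusted p = 7.26e-06) and larger in myeloid cells by 1.97 (adjusted p = 5.71e-08). For Pyhin1 (Ifi209) it was larger in neutrophils by 1.67 (adjusted p = 0.0129) and in myeloid cells by 1.12 (adjusted p = 0.0123). The macrophage values rest on 1 treated array, and in neutrophils preparation and treatment cannot be told apart. Untreated Ifi205 levels outside dendritic cells were mostly dim, so the sizes of its differences are approximate.

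Among the further family genes, the Ifi203 change was larger in neutrophils by 1.89 (adjusted p = 0.00429) and in myeloid cells by 1.04 (adjusted p = 0.0239). The Ifi207 change was larger in NKT cells by 1.61 (adjusted p = 0.0358). The Ifi208 change was larger in dendritic cells by 2.31 (adjusted p = 3.89e-05), in neutrophils by 1.62 (adjusted p = 0.00692) and in myeloid cells by 2.42 (adjusted p = 2.87e-08). Untreated Ifi208 lay below 7, the dim level, in dendritic cells, macrophages and neutrophils, so the sizes of these differences are approximate. The probe set shared by Ifi204 and Mnda (probe set 10360382) rose more in NKT cells by 1.97 (adjusted p = 0.0172; 0.217% of probe sets were called this way).

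For Ifi207 in NKT cells and for the shared probe set the call was lost against untreated array 3 alone and without the 3 arrays with markers of other cells, and for Ifi203 in neutrophils without untreated array 2 or interferon array 1 of that type. Markers of macrophages were raised in NKT arrays for 2 of 9 genes, and their part in the NKT values was not tested.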

How the results depend on the processing

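No called value reversed its direction under any alternative. Over single family genes, 2614 of 2721 values under the alternatives kept their side of the threshold, 52 lost a call and 55 gained one. With 1 array left out these numbers were 12711 of 12880, 125 and 44. For values called in neither fit the direction was not compared. Against untreated array 3 alone, which leaves out neutrophils, 1 instead of 7 member changes differed from the other 8 types, 10 instead of 16 untreated levels did, and 1 instead of 3 members differed in their change between myeloid and lymphocyte types. The 7 became 15 with array weights, whose estimation stopped before it converged, and 11 without the 3 arrays with markers of other cells; the cause was not tested.

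With 1 array left out, the members raised were 1 to 3 in the CD4+ and 1 to 2 in the CD8+ T cell fits, 1 to 3 in regulatory and 3 in gamma-delta T cells, 2 to 3 in NK and 3 to 4 in NKT cells, 2 to 3 in dendritic cells, 3 to 4 in macrophages, 3 in neutrophils and 3 on average. Differing changes numbered 5 to 10 and differing untreated levels 15 to 19. Between myeloid and lymphocyte types, 4 members differed in untreated level and 2 to 3 in change. The F test passed for 3 to 4 members. No macrophage change could be fitted without the single macrophage interferon array.

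Replicate numbers did not pair the arrays: of 16 pairs, 7 correlated above 0.1 (range -0.30 to 0.35). With the replicate block, 4 members were raised in macrophages in place of 3, since Aim2 (1.54, adjusted p = 0.0335 by limma) was then called, and the counts above were otherwise as in the fit without it: 3 raised in CD4+ and 2 in CD8+ T cells, 4 in NKT cells, 7 differing changes and 16 differing untreated levels.

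The number of arrays limits the precision: each type had 1 or 2 treated arrays, and signal over background was not used here.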
